A study of Saccharomyces cerevisiae with 6 samples.

Results

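The transcripts of 7 DNA-binding proteins that switch on gluconeogenic and peroxisomal genes in budding yeast were followed through sucrose withdrawal: CAT8, SIP4, ADR1, RDS2, ERT1, OAF1 and PIP2. The genes were picked by name and are 7 of the 5028 genes with values in the table used. All 7 were among the 5011 genes tested. RNA-seq of poly(A) RNA came from BY4741, a MATa haploid laboratory strain labelled wild type, and both groups carry the auxotrophic lesions of this strain. NoSucrose cultures (3 libraries) were grown at 30°C in SC medium (lacking tryptophan in the study's methods) with 2% sucrose to an OD600 of 0.45, collected on a filter and moved for 16 min to medium whose carbon sources were 2% glycerol and 2% ethanol. Sucrose cultures (3 libraries) were grown in the same way and harvested directly, so the filtration and transfer changed together with the carbon source and the effects of these cannot be told apart. Summed over the 5028 genes, the estimated counts were 26313145, 26777280 and 31231626 in NoSucrose replicates 1, 2 and 3. They were 25106494, 33651822 and 30932350 in Sucrose replicates 1, 2 and 3. The a-specific receptor gene STE2 had 5104 to 7710 counts in the NoSucrose libraries and 10342 to 13953 in the Sucrose libraries, against 195 to 264 and 174 to 238 for the alpha-specific receptor gene STE3. HIS3, a marker locus of this strain, had 1164 to 1557 counts in the NoSucrose libraries and 2534 to 3414 in the Sucrose libraries. Of the other marker loci, no gene named LEU2, MET15 or URA3 was among the 5028 genes with values.

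Yeast that can ferment a sugar keeps its genes for other carbon sources silent, mainly through the repressor Mig1. When sugar runs out, the Snf1 kinase inactivates Mig1 and activates a cascade of regulators. Cat8 and Sip4 bind the carbon source response element (CSRE) in genes of gluconeogenesis and the glyoxylate cycle. The zinc finger protein Adr1 turns on genes for ethanol, glycerol and fatty acid use. Rds2 and Ert1 are related regulators of gluconeogenic genes. Oaf1 and Pip2 form a heterodimer on the oleate response element (ORE) of genes for peroxisomal beta-oxidation. All of these except Adr1 belong to the zinc cluster family, a group of DNA-binding proteins found mainly in fungi.

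In the 600 bases before the start codon, CAT8, SIP4 and PIP2 each held a pair of matches to binding motifs of this circuit. They are shown for that reason. The share of all promoters with such a pair was not computed. Single matches in this window are common for the Mig1 core (27.8% of all promoters), the CSRE (24.7%) and the Adr1 core (32.0%). Sequences were read from the R64 genome (RefSeq), 5′ to 3′ on the strand of the gene, with the motif matches in capitals and 10 flanking bases on each side. In CAT8 the capitals mark 2 matches to the Mig1 core (chrXIII:831529-831570, minus strand). In SIP4 they mark 2 overlapping matches to the CSRE, 1 on each strand (chrX:265641-265680, plus strand). In PIP2 they mark an ORE and, nearer to the gene, an Adr1 core on the opposite strand (chrXV:1023326-1023378, minus strand).
CAT8: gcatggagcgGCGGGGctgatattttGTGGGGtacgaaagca
SIP4: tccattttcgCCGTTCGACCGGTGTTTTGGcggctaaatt
PIP2: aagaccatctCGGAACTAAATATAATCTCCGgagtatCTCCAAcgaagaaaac

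Motifs were searched on both strands. The CSRE was CC and CCG with 6 bases between them. The Adr1 core was TTGGGG or TTGGAG, and the Mig1 core was GGGG preceded by C or T and, before that, by G or C. The ORE was CGGNNNTNA, then 9 to 12 bases of any kind, then CCG. In the 600 bases before the start codon, a CSRE was found in 24.7% of all 6018 promoters, an Adr1 core in 32.0%, a Mig1 core in 27.8% and an ORE in 2.3%. The CAT8 matches began 231 and 215 bases before the start codon, those of SIP4 275 and 266 bases, and the ORE of PIP2 156 bases. ERT1 had 1 CSRE, 139 bases before its start codon, and OAF1 1 Mig1 core, 397 bases before. The upstream gene FLC2 lies 313 bases from OAF1, so that Mig1 core falls within FLC2. ADR1 and RDS2 had no match to any of the 4 motifs in this window, which says only that these letters were not found there. In the shorter window from 250 bases before to 50 after the start codon, the SIP4 matches lay outside and OAF1 had a CSRE and a Mig1 core that overlap within its coding bases. In that window a CSRE was found in 10.2% of all 6020 promoters, an Adr1 core in 16.4%, a Mig1 core in 11.6% and an ORE in 0.9%. A match is a description of the letters and not a sign that the factor was bound.

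**Figure D1:**
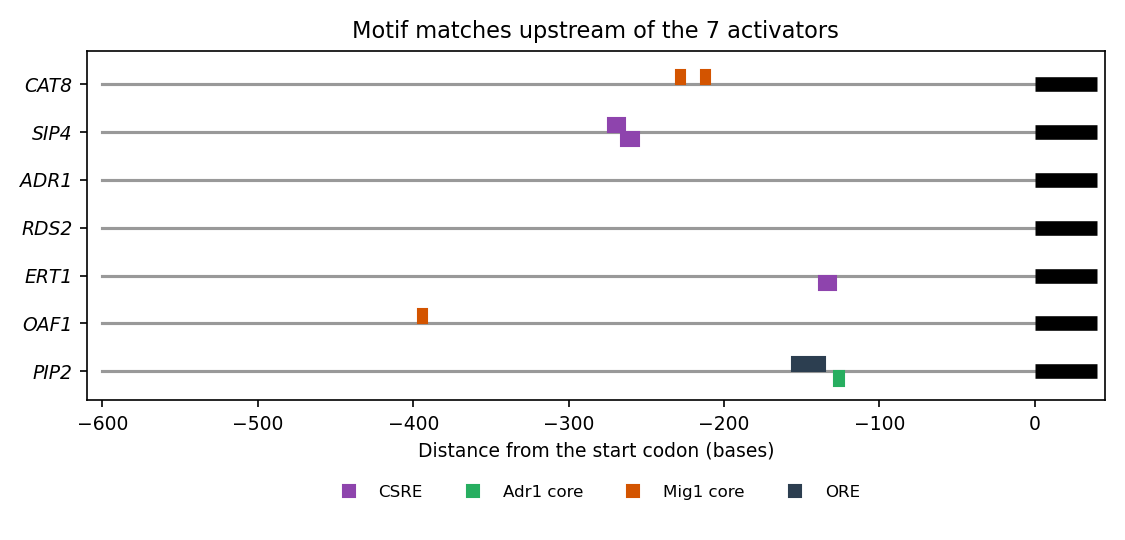
Motif matches in the 600 bases before the start codon of each gene (x axis, distance in bases; black blocks, start of the coding sequence). Boxes above the line lie on the strand of the gene and boxes below it on the other strand. CAT8 has 2 Mig1 cores, SIP4 2 overlapping CSREs and PIP2 an ORE beside an Adr1 core. The OAF1 match lies within the upstream gene FLC2.

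After sucrose withdrawal 5 of the 7 transcripts increased: CAT8, SIP4, PIP2, ADR1 and RDS2. A transcript was called when its adjusted p was below 0.05 and its fold change above 2, and by this rule 12.7% of all tested genes increased and 6.03% decreased (635 and 302 genes, or 733 and 201 with scaling by library size alone). None of the 7 decreased. OAF1 had a lower fold change than the threshold, and ERT1 was nearly the same in both conditions. In all 7 the NoSucrose libraries lay above the Sucrose libraries without overlap, as did 43.7% of all tested genes. The median log2 fold change was 1.27 over the 7 activators and 0.03 over all tested genes. By the adjusted p alone 7 of the 7 were higher in NoSucrose, against 42.2% of all tested genes, but ERT1 passed only narrowly. Values are CPM, the counts of a library scaled to a common total with its TMM factor. They are relative to the other transcripts of a library, so more copies of one mRNA and fewer of the rest cannot be told apart.

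**Figure D2:**
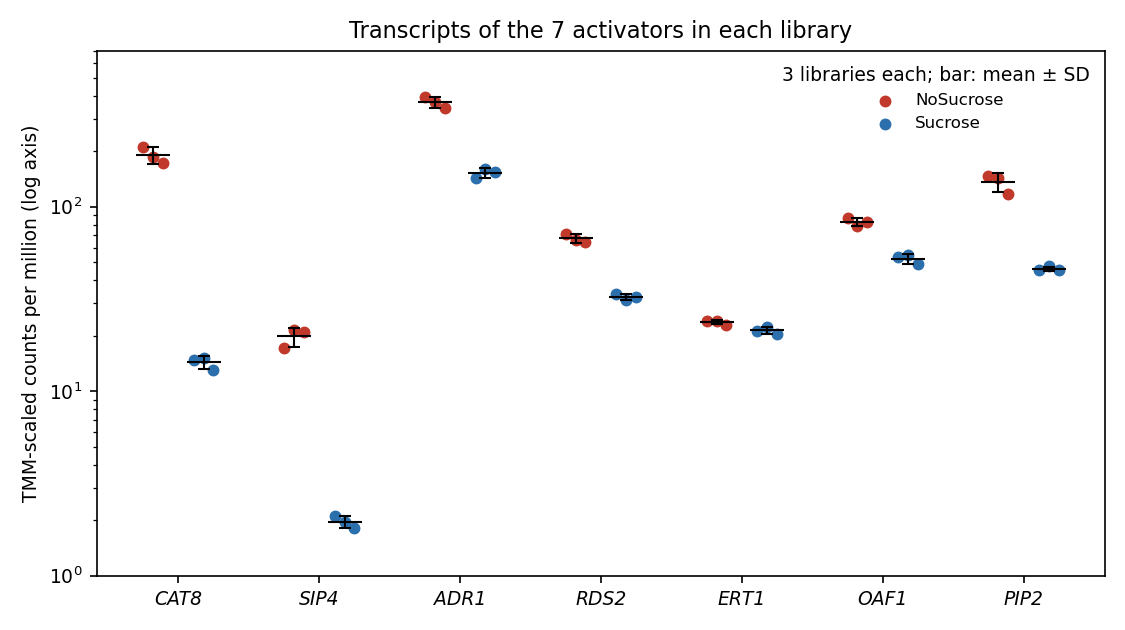
CPM of each activator in the 3 NoSucrose libraries (red) and the 3 Sucrose libraries (blue) on a log axis, with the mean and SD as black bars. CAT8 and SIP4 show the widest gaps, with means of 189.6 and 14.3 CPM for CAT8 and 19.8 and 1.96 CPM for SIP4, and the ERT1 groups nearly touch.

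CAT8 (YMR280C, chrXIII:827028-831329 in R64) encodes the zinc cluster activator that stands at the head of the gluconeogenic branch. It had 211.7, 184.8 and 172.3 CPM in NoSucrose replicates 1, 2 and 3, against 14.8, 15.1 and 13.0 CPM in Sucrose replicates 1, 2 and 3. Every NoSucrose value was thus more than 10 times as high as any Sucrose value. The log2 fold change was 3.73 (SE 0.10, edgeR, adjusted p = 8.58e-08), a 13.2-fold increase. CAT8 ranked 76 of 5011 by log2 fold change. This was the largest increase among the 7 activators, and among all 49 tested genes of the zinc cluster list.

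SIP4 (YJL089W, chrX:265926-268415), which encodes the second CSRE-binding protein and is itself known as a target of Cat8, was the least abundant of the 7 in both conditions. It reached 17.1, 21.5 and 20.8 CPM in NoSucrose replicates 1, 2 and 3, against 2.11, 1.94 and 1.82 CPM in Sucrose replicates 1, 2 and 3. The groups were far apart, with NoSucrose replicate 1 the lowest of its group. The Sucrose values rest on only 51, 63 and 54 counts. The log2 fold change was 3.34 (SE 0.13, the widest of the 7, edgeR, adjusted p = 3.54e-07), or 10.1-fold.

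ADR1 (YDR216W, chrIV:895035-899006) was the most abundant of the 7 in both conditions per kb of coding length. It had 390.8, 369.5 and 341.8 CPM in NoSucrose replicates 1, 2 and 3, against 143.1, 160.9 and 153.5 CPM in Sucrose replicates 1, 2 and 3. The group means of 367 ± 24.6 and 152 ± 8.93 CPM (SD, n = 3 each) differed by 8.74 times the larger SD. The transcript increased 2.41-fold, with a log2 fold change of 1.27 (SE 0.07, edgeR, adjusted p = 1.45e-06). ADR1 also stood above CAT8 and SIP4 per kb in every Sucrose library.

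RDS2 (YPL133C, chrXVI:299888-301228) and ERT1 (YBR239C, chrII:698354-699943) encode similar zinc cluster regulators of gluconeogenic genes, and of the pair RDS2 increased while ERT1 was not called. RDS2 had 71.2, 66.1 and 64.5 CPM in NoSucrose replicates 1, 2 and 3, against 33.5, 31.3 and 32.3 CPM in Sucrose replicates 1, 2 and 3. The replicates were tight, and the log2 fold change of 1.06 (SE 0.05, edgeR, adjusted p = 9.48e-07) lay just above the threshold of 2-fold. It stayed between 1.01 and 1.17 under all 11 alternative fits, so RDS2 was called in each of them. ERT1 had 24.1, 23.9 and 23.0 CPM in NoSucrose replicates 1, 2 and 3, against 21.3, 22.2 and 20.5 CPM in Sucrose replicates 1, 2 and 3. The lowest NoSucrose value and the highest Sucrose value were less than 1 CPM apart. The log2 fold change of ERT1 was 0.15 (SE 0.06, edgeR, adjusted p = 0.0461), and its adjusted p ranged from 0.00368 with scaling by library size alone to 0.144 with DESeq2. It missed 0.05 in 8 of the 11 alternative fits, among them 5 of the 6 that left out 1 library, and no direction is drawn for this gene.

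The pair OAF1 (YAL051W, chrI:48564-51707) and PIP2 (YOR363C, chrXV:1020222-1023212) encodes the heterodimer that binds the ORE, and the promoter of PIP2 held a match to that element. PIP2 had 146.7, 143.4 and 117.2 CPM in NoSucrose replicates 1, 2 and 3, against 45.2, 47.4 and 45.2 CPM in Sucrose replicates 1, 2 and 3. NoSucrose replicate 3 was the lowest of its group, yet well above all Sucrose libraries. The log2 fold change was 1.56 (SE 0.09, edgeR, adjusted p = 1.59e-06), a 2.95-fold increase. OAF1, which encodes the fatty acid-binding partner, had 87.3, 78.4 and 82.2 CPM in NoSucrose replicates 1, 2 and 3, against 53.2, 54.4 and 48.7 CPM in Sucrose replicates 1, 2 and 3. Its groups did not overlap, but the change was 1.59-fold only, with a log2 fold change of 0.66 (SE 0.06, edgeR, adjusted p = 1.59e-05). OAF1 stayed below the fold change threshold in every alternative fit, between 0.62 and 0.78 on the log2 scale.

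Levels of different genes were compared as CPM per kb of coding length. In NoSucrose the order was ADR1 (92.5 ± 6.19 CPM per kb, SD, n = 3), RDS2 (50.2 ± 2.61), PIP2 (45.4 ± 5.41), CAT8 (44.1 ± 4.68), OAF1 (26.3 ± 1.43), ERT1 (14.9 ± 0.374) and SIP4 (7.95 ± 0.940). The libraries of RDS2 and PIP2 overlapped, as did those of PIP2 and CAT8, so these neighbours did not differ beyond their spread. In Sucrose the order was ADR1 (38.4 ± 2.25 CPM per kb, SD, n = 3), RDS2 (24.1 ± 0.784), OAF1 (16.6 ± 0.961), PIP2 (15.4 ± 0.429), ERT1 (13.4 ± 0.519), CAT8 (3.33 ± 0.267) and SIP4 (0.787 ± 0.0574). Here only OAF1 and PIP2 overlapped. ADR1 led and SIP4 came last in both conditions. By mean, RDS2 took place 2 in both, and CAT8 took place 4 in NoSucrose and place 6 in Sucrose. The NoSucrose libraries of RDS2 (lowest 48.1) and CAT8 (highest 49.2 CPM per kb) overlapped too, so the order of RDS2, PIP2 and CAT8 there is not settled.

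To compare partners free of the scaling between libraries, the log2 ratio of their counts per kb was taken within each library. PIP2 over OAF1 was 0.82, 0.94 and 0.58 in NoSucrose replicates 1, 2 and 3, against -0.165, -0.13 and -0.035 in Sucrose replicates 1, 2 and 3. Transcripts of the dimer partners were thus near equal per kb in Sucrose (geometric mean ratio 0.927), whereas PIP2 exceeded OAF1 in each NoSucrose library (geometric mean ratio 1.72). The difference of 0.89 was larger than the SDs of 0.18 and 0.07 (exact two-sided permutation test, p = 0.1, which is the lowest value this design can give).

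The ERT1 over RDS2 ratio was -1.81, -1.72 and -1.735 in NoSucrose, against -0.90, -0.745 and -0.90 in Sucrose, a difference of -0.91 with SDs of 0.05 and 0.09. ERT1 thus made up a smaller part of the pair in every NoSucrose library than in any Sucrose library. SIP4 over CAT8 was -2.84, -2.32 and -2.26 in NoSucrose, against -2.03, -2.17 and -2.045 in Sucrose. The groups did not overlap, but the difference of -0.39 was close to the NoSucrose SD of 0.32. It was -0.21 without NoSucrose replicate 1. The exact permutation p was 0.1 for each of the 3 ratios and stayed 0.1 after Benjamini-Hochberg adjustment, so no ratio could pass 0.05 in this design.

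**Figure D3:**
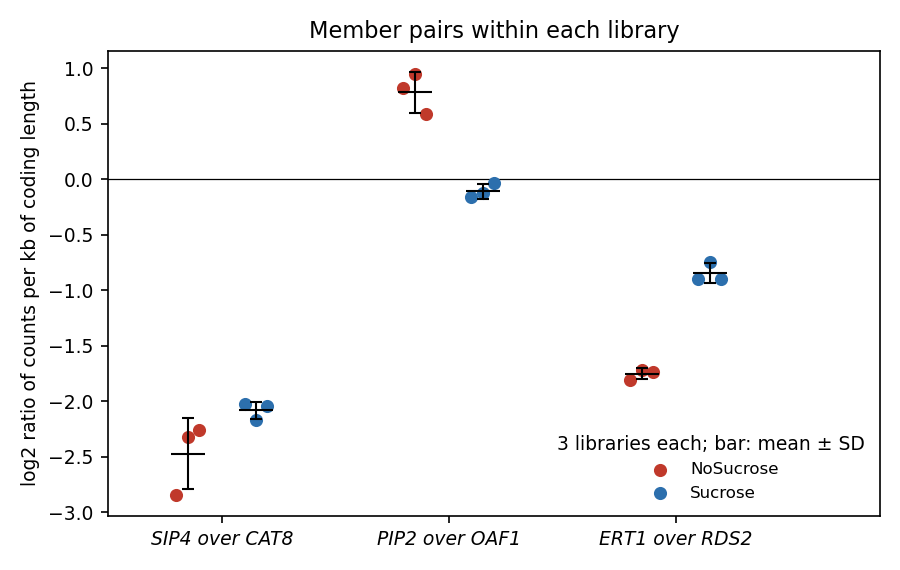
log2 ratio of counts per kb of coding length (y axis) for 3 pairs of activators in each NoSucrose library (red) and Sucrose library (blue), with the mean and SD as black bars. PIP2 over OAF1 lies above 0 in all NoSucrose libraries and just below 0 in all Sucrose libraries.

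Genes known to be regulated by these proteins were grouped in 3 lists that share members (2 genes between the CSRE and Adr1 lists, 7 between the Adr1 and ORE lists). The lists were drawn from textbook knowledge with earlier results of these data known. Together they hold 30 genes, of which 26 increased, and 12.7% of all tested genes did. Among 10 CSRE-regulated genes 9 increased, with a median log2 fold change of 2.46. The acetate transporter gene ADY2 led the list with 807 ± 153 CPM in NoSucrose and 1.31 ± 0.259 CPM in Sucrose (SD, n = 3 each). On the log2 scale this is a change of 9.25 (SE 0.22, edgeR, adjusted p = 6.51e-08). MDH2, the gene of cytosolic malate dehydrogenase, was lowest at 0.28 on the log2 scale and was not called. FBP1 and PCK1, which encode the enzymes particular to gluconeogenesis, increased 3.23-fold and 3.02-fold but remained low, at 2.62 and 14.7 CPM in NoSucrose against 0.807 and 4.87 CPM in Sucrose. ICL1, the gene of isocitrate lyase in the glyoxylate cycle, increased 9.37-fold.

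Of 12 Adr1-regulated genes 11 increased, with a median log2 fold change of 5.55. The exception was PEX11, a gene for peroxisome division, at 0.82. ADH2, which encodes the alcohol dehydrogenase that oxidises ethanol, increased 55.1-fold. ADR1 itself had a log2 fold change of 1.27. In the 17 ORE-regulated genes 14 increased and the median was 3.68. POT1, the gene of peroxisomal thiolase, led with 8.39 on the log2 scale, and ANT1, the gene of the peroxisomal ATP carrier, was lowest at -0.23 and was not called. In the 600 bases before the start codon, an ORE was found in 13 of these 17 genes (2.3% of all promoters), a CSRE in 9 of the 10 CSRE-regulated genes (24.7%) and an Adr1 core in 12 of the 12 Adr1-regulated genes (32.0%). In the window from 250 bases before to 50 after the start codon, which was searched before the longer one, the counts were 8 of 17 for the ORE (0.9% of all promoters), 1 of 10 for the CSRE (10.2%) and 11 of 12 for the Adr1 core (16.4%). The share of CSRE-regulated genes with a CSRE was thus near that of all promoters in the shorter window.

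Upstream of the activators, the 14 genes of the Snf1-Mig1 branch had a median log2 fold change of 0.19, with 2 increased and 1 decreased. The 2 increased genes are 14.3% of the list, near the 12.7% of all tested genes, and 6.03% of all tested genes decreased. SIP2, a gene of a Snf1 beta subunit, increased most (log2 fold change 1.57). MIG2, the gene of a repressor related to Mig1, had 11.5 CPM in NoSucrose and 44.0 CPM in Sucrose and was the 1 that decreased (log2 fold change -1.95, SE 0.25, edgeR adjusted p = 0.000152). MIG3, the gene of another repressor related to Mig1, had 8.95 CPM in NoSucrose and 3.79 CPM in Sucrose and increased (log2 fold change 1.22, SE 0.19, edgeR adjusted p = 0.000511). MIG1 itself had 193 CPM in NoSucrose and 162 CPM in Sucrose and did not pass (adjusted p = 0.0613, edgeR). Of 6 other regulators of non-fermentable carbon genes 4 increased (66.7%, against 12.7% of all tested genes), led by USV1 with a log2 fold change of 5.17. ZNF1 was listed with them but not tested. GSM1, which increased, and OAF3 and TOG1, which were not called, also belong to the other zinc cluster genes below. OAF3, a zinc cluster gene linked to the oleate response, was lowest at -0.09 (adjusted p = 0.162, edgeR).

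Among the 43 other zinc cluster genes tested, 6 increased (14.0%, close to the 12.7% of all tested genes) and 2 decreased. Their median on the log2 scale was 0.43. The zinc cluster activators CAT8, SIP4, PIP2 and RDS2 ranked 1, 2, 7 and 10 of the 49 tested genes, whereas OAF1 ranked 20 and ERT1 33. ZNF1, YJL206C, YKL222C, YLL054C, YLR278C, YNR063W and YPR196W were also listed but not tested, so they have no rank. EDS1 was the highest of the others with a log2 fold change of 2.85, and GAL4, the activator gene of galactose use, was among the 6 at 1.63. TEA1 and PPR1, an activator of Ty1 transcription and a regulator of pyrimidine synthesis genes, decreased by 1.12 and 1.08 on the log2 scale, and with scaling by library size alone only 1 gene of this list decreased.

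**Figure D4:**
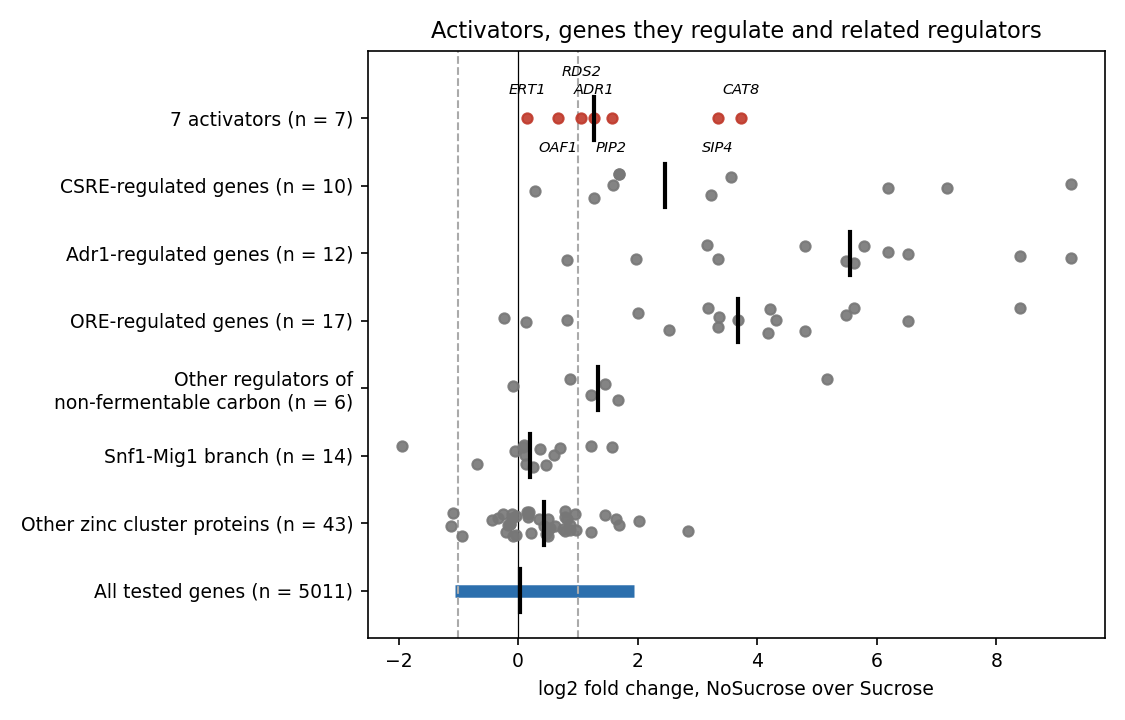
log2 fold change of NoSucrose over Sucrose (x axis) for each of the 7 activators (red, named) and for the genes of 6 lists (grey points, spread vertically for legibility), with the list medians as black bars. The blue bar spans the 5th to 95th percentile of all tested genes (-1.06 to 1.93), and dashed lines mark a 2-fold change. The Adr1-regulated genes have the highest median, 5.55.

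The annotated genes beside the activators on the chromosome were also compared. CAT8 is divergent from GPI12, a gene of GPI anchor synthesis, with 1009 bases between them, and GPI12 increased too (log2 fold change 1.49, SE 0.04, edgeR adjusted p = 1.04e-07). None of the other 9 tested neighbours was called, and of all tested genes 12.7% increased and 6.03% decreased. The neighbours ATR2, YBR238C, YOR365C and YDR215C, the last divergent from ADR1, were not tested. The divergent partners of SIP4 and RDS2, DPB11 (replication initiation) and COX11 (cytochrome c oxidase assembly), had log2 fold changes of 0.44 and 0.39. No annotated gene overlapped any of the 7.

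The genes most like each activator were found by the Euclidean distance between profiles of log2 CPM over the 6 libraries, each centred on its own mean. For CAT8 these were CSR2, VHR1 and FAA2 (distances 0.26, 0.27 and 0.35). For SIP4 they were SFC1, MAL31 and ICL1 (0.20, 0.29 and 0.39). ADR1 was closest to REC107, OSH2 and PEP12, RDS2 to NAS2, MMT2 and PEX17, and PIP2 to SNF11, SUR1 and SLM1, at distances of 0.06 to 0.10. OAF1 was closest to HDA2, RGP1 and BRO1, and ERT1 to LEA1, TMA108 and GCR1, at distances of 0.04 to 0.09. This distance depends mainly on the change between NoSucrose and Sucrose, so near genes are those with a similar fold change. CSR2, for example, had a log2 fold change of 3.74 beside 3.73 for CAT8, and REC107 1.27 beside 1.27 for ADR1. Shared regulation was not tested.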

How the data were processed

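Reads were trimmed by the authors (Flexbar) and quantified in Salmon, with R64-1-1 as a decoy-aware reference. They deposited estimated counts (expected counts) per gene, in an unfiltered table and in one filtered on low counts. Neither was normalized. Gene names are displaced in the filtered one. Each of its 5028 rows was therefore named after the 1 gene of the unfiltered table with the same 6 values in any order, and samples were taken from its column headers. Under these headers the values of all 1999 genes in a shortened supplementary table of the study matched in all 6 libraries, to a relative difference of at most 1e-05 or the same 5 significant digits. The 6 value columns of the unfiltered table stand in another order than its headers and were not used for samples.

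Counts were rounded and filtered with filterByExpr (minimum count 15, total 20), which left 5011 genes. TMM factors (0.957 to 1.07) and quasi-likelihood tests came from edgeR 4.0.16 (R 4.3.3), with condition as the only term and Benjamini-Hochberg adjustment over all tested genes. The standard error (SE) of a log2 fold change was taken as its size over the square root of F. The p-values rest on 3 cultures per condition, stated as biological triplicates. log2 CPM used a prior count of 2. Ratios were tested with exact permutation tests in scipy 1.17.1. Only the main edgeR fit was also run on simulated counts with known changes. Alternatives were DESeq2 1.42.0, RLE size factors, library size alone, no filter, a replicate block, each library left out, and no fold change threshold.

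The activators and the lists were chosen with earlier results of these data known. Named by rule were the activators, the highest and lowest gene of each list, members called against its median, adjacent genes and the 3 genes with the nearest profile. FBP1, PCK1, ICL1, ADH2, MIG1, MIG3 and GAL4, and FOX2 and SFC1 in the closing section, were picked with their values known. The 600-base promoter window was also chosen after the shorter one was searched. Gene names matched the RefSeq annotation of R64, the build the authors used, for 5009 of 5028 genes. Protein sequences were not analysed here.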

Additional observations from a re-analysis of the deposited data

How the results depend on the processing

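CAT8, SIP4, ADR1, RDS2 and PIP2 were called as increased under each of the 11 alternative fits, and OAF1 and ERT1 under none of them. Without the fold change threshold 7 of the 7 passed, as did 2114 higher and 1993 lower genes of all tested, 8 higher and 2 lower genes of the Snf1-Mig1 branch, 26 higher and 10 lower of the other zinc cluster genes and 1 lower ORE-regulated gene. With scaling by library size alone the median log2 fold change of all tested genes was 0.14, against 0.03 with TMM, the increased and decreased genes numbered 733 and 201, the decreased genes among the other zinc cluster proteins 1, and the log2 fold changes of the activators lay between 0.26 for ERT1 and 3.84 for CAT8. With each library left out in turn, the count of increased activators stayed at 5, and the ratio differences (-0.498 to -0.209 for SIP4 over CAT8, 0.812 to 0.992 for PIP2 over OAF1, -0.933 to -0.855 for ERT1 over RDS2) kept their direction. No pairing of libraries by replicate number was seen. The deviations of same-numbered libraries had correlations of -0.137, -0.002 and 0.041, and 0 of 3 NoSucrose libraries correlated best with their own number. Low correlations cannot exclude that the cultures were paired. The fit with the replicate number as a block called 5 of the 7 activators too, and gave ERT1 an adjusted p of 0.0617. Among the activators depth limits SIP4 most, with at most 63 counts in a Sucrose library. Some regulated genes were lower still. Mean Sucrose CPM was 1.31 for ADY2, 1.27 for POT1, 0.807 for FBP1 and 0.621 for SFC1, against 1.96 for SIP4. The large fold changes of ADY2 and POT1 thus also rest on low Sucrose values.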

Other observations

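Which NoSucrose library held the extreme values is given as a description with no test. NoSucrose replicate 1 had the highest NoSucrose CPM for 6 of the 7 activators, 10 of 12 Adr1-regulated genes and 13 of 17 ORE-regulated genes, against 39.5% of all tested genes. SIP4 had its lowest NoSucrose value there. NoSucrose replicate 3 held the lowest value for 5 of the 7 activators, 12 of 12 Adr1-regulated genes and 15 of 17 ORE-regulated genes, against 38.3% of all tested genes. POT1, for example, had 522, 485 and 291 CPM in NoSucrose replicates 1, 2 and 3, and FOX2, the gene of the multifunctional beta-oxidation enzyme, 990, 874 and 558 CPM. The CSRE-regulated genes were mixed, with 3 of 10 highest and 4 of 10 lowest in replicate 1, and 5 of 10 lowest in replicate 3. The 4 of 10 lowest in replicate 1 are near the share of all tested genes lowest there, 38.3%. The CSRE-regulated genes lowest in replicate 1 included ICL1 (207, 259 and 321 CPM in NoSucrose replicates 1, 2 and 3), FBP1 (1.91, 2.85 and 3.10 CPM) and SFC1, the gene of the succinate-fumarate carrier (6.06, 8.08 and 7.88 CPM). ICL1 and SFC1, with MAL31, were the genes listed as nearest to SIP4 in profile. That distance uses these same libraries and is no separate observation. Genes of one list share libraries and are not independent, and any difference in timing or handling between the 3 withdrawals was not tested.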
